A study of Homo sapiens with 4 samples.

Results

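MT-ND3 (ND3 below, NCBI gene ID 4537) is the mitochondrial gene for a small membrane subunit of respiratory complex I. Its mRNA was taken as the 346 positions from 10058 to 10403 of the deposited heavy-strand profiles of the human mitochondrial chromosome, which hold 16500 positions. These profiles run 1 base behind the standard mitochondrial reference in this region, where the gene lies at 10059 to 10404, and all positions below are in the numbering of the files. The mRNA has 115 complete codons and a final T, with 102 A, 102 C, 37 G and 105 T. All 204 A and C positions passed the limits for testing (a mean mismatch level between 0.2% and 30% over the libraries), out of 9910 tested A and C positions on that strand. The study probed the structure of human mitochondrial mRNAs with dimethyl sulfate (DMS). Mitochondria were isolated from HEK 293 cells (a human embryonic kidney line, named HEK-293T in the culture description), incubated with 1% DMS for 5 min at 37 °C, and their total RNA was sequenced. The groups were wild-type mitochondria (2 biological replicates) and mitochondria from cells with a knockout of LRPPRC (2 biological replicates). All 4 libraries were treated with DMS. The allele of the knockout and whether the line is a single clone are not given in the sources used here, and no library without DMS was analysed here, so the bases that DMS does not report served as background. LRPPRC itself is encoded in the nucleus, so these profiles hold no value that checks the knockout.

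DMS methylates the base-pairing edge of A and C. A base that is paired with another base, or covered by a protein, is shielded from it, and a thermostable group II intron reverse transcriptase (TGIRT) reads through a methylated base with a mismatch. The mismatch level of an A or C, the percentage of reads that differ from the reference at that position, is therefore a measure of how accessible the base was. G and T carry a background level, and because both strands of the mitochondrial genome are transcribed, misassigned reads of the opposite RNA would add mismatches at G and T, where that RNA has C and A. LRPPRC is an RNA-binding protein that forms a complex with SLIRP and is known for stabilising mitochondrial mRNAs and for its part in their polyadenylation and translation. Mitochondrial mRNAs of the heavy strand are cut out of a long precursor, mostly at flanking tRNAs. ND3 lies between the tRNA genes for glycine (TRNG) and arginine (TRNR), begins directly with its start codon, and ends in a T that polyadenylation turns into a stop codon.

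The 5′ end of the mRNA is shown because the largest rise of the whole strand lies there, with CYTB (cytochrome b) for comparison. Capitals mark the first 2 bases of each coding sequence, and the bases before them belong to TRNG for ND3. For CYTB they lie opposite TRNE, a tRNA gene of the light strand, and in the short gap between TRNE and CYTB. Sequences here are those of the profiles' own base column, on the strand of the mRNA and in their numbering.
ND3 start, chrM:10043-10087: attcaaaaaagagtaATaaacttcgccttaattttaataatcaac
CYTB start, chrM:14731-14775: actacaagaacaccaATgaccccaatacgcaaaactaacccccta

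The first base of ND3, the A at 10058, was mismatched at 0.319% and 0.248% in the wild-type libraries and at 3.43% and 3.46% in the LRPPRC knockout libraries. The groups lay far apart, and both knockout libraries were more than 10 times as high as either wild-type library. Relative to each library's median, the log2 level rose by 3.84 (SE 0.11, limma adjusted p = 0.00013, higher in 2 of 2 knockout libraries). Without centring on the median it rose by 3.21 (adjusted p = 2.4e-05). This was rank 1 among the 9910 tested A and C positions of the strand, ordered by rise. The second base, the T at 10059, moved in the same way although DMS does not report T. It was at 0.337% and 0.346% in the wild type and at 4.62% and 4.78% in the knockout, a 13.8-fold difference between means. A fit of all 4 bases, chosen after this T was seen to move, gave it a rise of 3.74 (SE 0.05, limma adjusted p = 3.39e-05). It had rank 1 among the 5456 G and T positions in that fit, which called 65.8% of all positions of the strand, 28.4% higher and 37.4% lower.

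The light-strand RNA opposite these bases did not show the change. Opposite 10059 its A was at 2.37% ± 0.030 (SD, n = 2) in the wild type and 2.41% ± 0.107 in the knockout. Opposite 10058 the light-strand T was between 0.378% and 0.424% in all 4 libraries. Counting deletions together with mismatches left the second base at 0.377% and 0.410% in the wild type and 5.55% and 5.72% in the knockout. At the next A positions the groups lay much closer. The A at 10060 was at 0.850% and 0.910% in the wild type and at 0.949% and 0.964% in the knockout, a centred rise of 0.74 (SE 0.08, limma adjusted p = 0.00162) that without centring was 0.11 (adjusted p = 0.271). The A at 10061 stood at 1.85% and 1.96% in the wild type and 1.50% and 1.42% in the knockout; it rose with centring (0.27, limma adjusted p = 0.0158) and fell without (-0.36, adjusted p = 0.00381).

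On the other side of the boundary, the last bases of TRNG moved the opposite way. The last tRNA base, the A at 10057, had levels of 2.68% and 3.61% in the wild type, against 1.89% and 1.60% in the knockout libraries. The T before it, at 10056, went from 5.28% and 9.49% to 2.50% and 2.61%. Their wild-type libraries differed widely from each other, but the groups did not overlap at either base. In the fit of all 4 bases, the T at 10056 fell by 1.13 (limma adjusted p = 0.0179) and the A at 10057 fell by 0.50 (adjusted p = 0.0411). For the A, tested among A and C positions alone, the centred change was -0.17 (adjusted p = 0.38). Of the tRNA bases within 10 nt of the start, the A at 10054 rose in the centred fit, from 0.416% ± 0.059 (SD, n = 2) to 0.600% ± 0.067 (1.07, limma adjusted p = 0.00274). The A at 10049 was called too (0.75, limma adjusted p = 0.0496), but its groups overlapped, at 0.239% and 0.233% in the wild type against 0.363% and 0.189%. How many reads of each library came from uncut precursor or from ends at this boundary was not measured here, and their part in these values was not tested.

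The 12 coding sequences of the heavy strand all begin with A followed by T, so the same pair of bases could be read in each. Those of ATP6 and ND4 start inside mRNAs that they share with ATP8 and ND4L, so their first bases are not 5′ ends. Whether the first bases of the others are 5′ ends was not determined here. ND1 starts at 3306 and ATP8 at 8365, whereas the tRNA genes before them end at 3303 and 8363. The first base was called higher in the knockout for 11 of them and lower for 0 in the centred fit, beside 44.9% of all tested A and C positions called higher. That share pools A and C, whereas all 12 first bases are A, and the share for A alone was not counted. The centred median change over the strand was 0.24 for A and -0.03 for C, and 62 of the 102 A of ND3 were called higher. Without scaling, the knockout mean was higher for 10 of the 12. ND3 had the fourth-lowest first base in the wild type and the highest in the knockout. Among the other 11 the knockout mean of the first base was 0.608 to 3.56 times the wild-type mean, against 12.2 times for ND3. COX2 (cytochrome c oxidase subunit 2) came next by ratio, at 0.151% ± 0.015 in the wild type and 0.536% ± 0.051 in the knockout. CYTB followed, with 0.784% ± 0.049 and 2.46% ± 0.11. The second base gave 0.720- to 5.34-fold for the other 11, with COX2 again highest and CYTB at 5.04-fold, from 0.600% ± 0.034 to 3.03% ± 0.11 (all SD, n = 2).

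**Figure D1:**
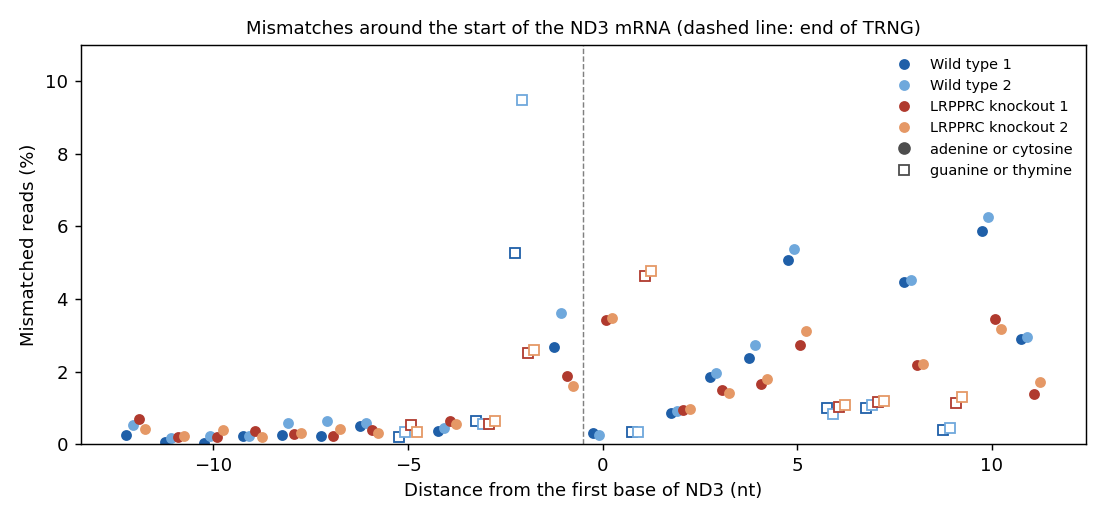
Mismatch level in percent (vertical axis) at each position around the start of ND3 (horizontal axis, distance from the first base in nt), with a point for each of the 2 wild-type and 2 LRPPRC knockout libraries, filled for A and C and open for G and T. The knockout libraries stand at 3.43% and 3.46% at the first base and 4.62% and 4.78% at the second, against 0.248% to 0.346% in the wild type, while the last bases of the tRNA before it are lower in the knockout.

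Over the whole mRNA, ND3 was less mismatched in the knockout. The mean of its 204 A and C positions was 3.37% and 3.30% in the wild-type libraries and 2.31% and 2.27% in the knockout libraries. The groups did not overlap, and the mean fell by 1.05 percentage points, from 3.33% ± 0.049 to 2.29% ± 0.023 (SD, n = 2). A two-sided exact permutation test gave p = 0.333, the smallest that 2 libraries against 2 allow. C positions fell from 4.07% ± 0.030 to 2.61% ± 0.015, a ratio of 0.641. A positions fell from 2.60% ± 0.069 to 1.97% ± 0.031, a ratio of 0.758. The background moved less or the other way: T was at 1.12% ± 0.011 and 1.13% ± 0.015, and G at 0.525% ± 0.003 and 0.736% ± 0.056. The ratio of the A and C mean to the G and T mean was 3.46 and 3.43 in the wild type and 2.28 and 2.17 in the knockout, again without overlap (exact permutation p = 0.333). Leaving out the first 2 bases of the gene put the knockout ratio at 2.27 ± 0.080.

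The fall was shared by the strand, and its sign depended on scaling. The median of all tested A and C positions of the strand file was lower in the knockout by 0.63 on the log2 scale. The mean log2 level of ND3 fell by 0.47 without centring (SE 0.017, limma adjusted p = 1.56e-05, lower in 2 of 2 knockout libraries). Relative to the library median it rose by 0.16 (SE 0.016, limma adjusted p = 0.00202, higher in 2 of 2). A typical position of the strand changed by nearly as much on either scale. The median change over positions was 0.16 with centring and -0.47 without in ND3, beside 0.13 and -0.50 over the strand. Of all 37 genes fitted, 83.8% were called with centring, 59.5% higher and 24.3% lower. Without centring 73.0% were called, 8.11% higher and 64.9% lower. The absolute difference between libraries in DMS reaction or in read processing was not measured, so the centred and uncentred values are both given below. Each is a difference of log2(fraction + 0.001), which understates the change of low positions.

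Base by base, most of ND3 moved with the strand. With centring, 136 of the 204 positions were called, 102 higher and 34 lower. The background shares over the whole strand were 71.5% called, 44.9% higher and 26.6% lower, against 66.7%, 50.0% and 16.7% in ND3. Without centring 177 were called, 7 higher and 170 lower, that is 86.8%, 3.43% and 83.3%, beside background shares of 83.0%, 4.73% and 78.3%. The levels of wild type and knockout did not overlap at 186 positions (91.2%, background 92.1%), and the knockout was the lower at 177 of them. With centring on a median shared by both bases, 62 A were called higher and 3 lower, while 40 C were called higher and 31 lower. Over the strand the median change on that scale was 0.24 for A and -0.03 for C, and called shares by base were not counted. With each base fitted and centred alone, 30 A were called higher and 9 lower, and 58 C higher and 13 lower. The uncentred median change over ND3 was -0.40 for A and -0.60 for C, close to the -0.39 and -0.66 of the strand.

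Falls were deeper where the level was high. When the positions were ordered by their mean over all 4 libraries and divided into 3 equal groups, the uncentred median change was -0.37 in the lowest, -0.45 in the middle and -0.61 in the highest group. All 68 positions of the highest group were called lower without centring. The step was larger for C, at -0.40, -0.50 and -0.66 over the same 3 groups, than for A, at -0.36, -0.42 and -0.43. The difference between these steps was not tested, and the levels that ordered the positions are also those compared. The profile was also flatter in the knockout. The Gini index, which is 0 when all positions have the same level and nears 1 when few positions hold all of it, was 0.266 ± 0.004 in the wild type and 0.225 ± 0.005 in the knockout (SD, n = 2). The difference of -0.041 (SE 0.004) had a limma adjusted p of 0.0114 and was lower in 2 of 2 knockout libraries. The index was called in 45.9% of genes, lower in 37.8% and higher in 8.11%. It fell from 0.220 to 0.180 for C alone and was at 0.258 and 0.248 for A alone, where the difference of -0.010 was not called (limma adjusted p = 0.279). Leaving out 1 library of either group gave adjusted p-values from 0.0485 to 0.123, with 3 of the 4 above 0.05: the call was lost without wild-type replicate 2 and without either knockout replicate.

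**Figure D2:**
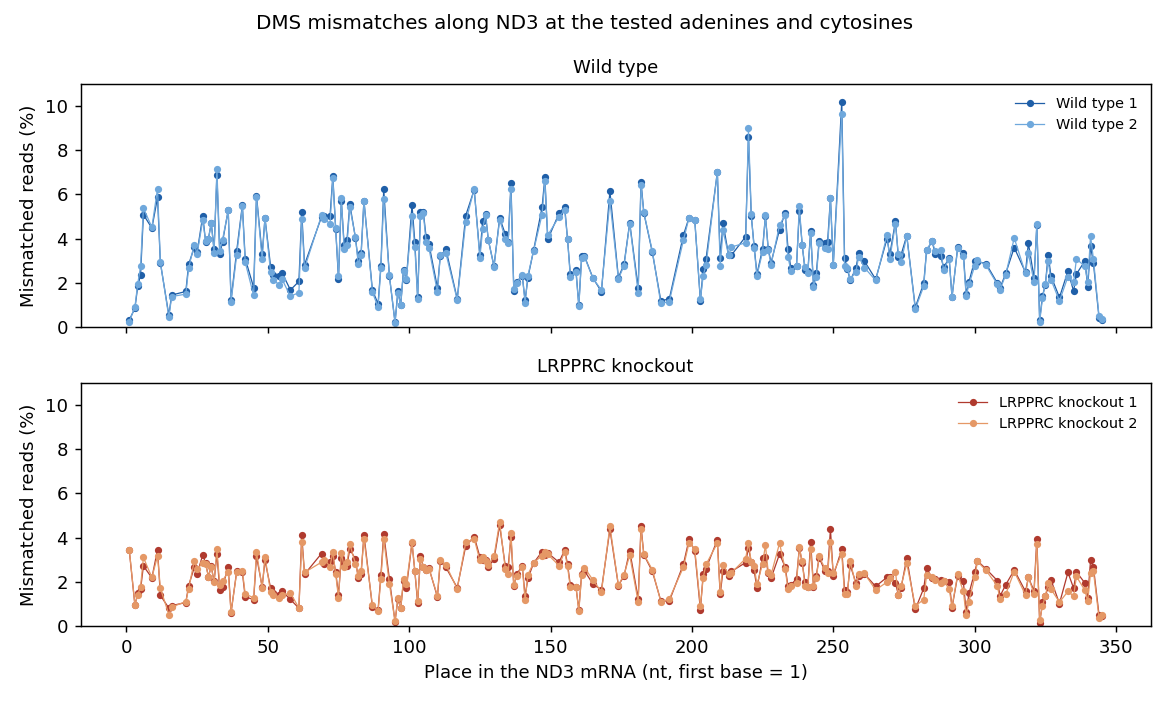
Mismatch level in percent (vertical axis) at the A and C positions along ND3 (horizontal axis, place in nt, first base = 1), with a line for each library and a panel for each group. The wild-type libraries reach 10.2% and 9.63% at their highest position, where the knockout libraries are at 3.48% and 3.26%, and the first base is high in the knockout panel alone.

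The highest peaks of the wild-type profile were 4 cytosines, each followed by another C. They are shown because the first of them, 10310 and 10277, also had the largest centred falls of ND3; the capital marks the position named.
10310, chrM:10298-10322: acaactaacctgCcactaatagtta
10277, chrM:10265-10289: gccctccttttaCccctaccatgag
10266, chrM:10254-10278: atctagaaattgCcctccttttacc
10089, chrM:10077-10101: taataatcaacaCcctcctagcctt

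The C at 10310 was at 10.2% and 9.63% in the wild type and at 3.48% and 3.26% in the knockout, a fall of 1.53 without centring and 0.90 with it (SE 0.05, limma adjusted p = 0.000274). The C at 10277 was at 8.57% and 8.98% against 3.55% and 3.75%, and it fell by 0.61 with centring (SE 0.04, limma adjusted p = 0.000471). Both fell from the top of the wild-type profile toward the knockout mean of ND3, 2.29%. The C at 10266 went from 7.01% ± 0.008 to 3.83% ± 0.11 (SD, n = 2), a centred change of -0.22 (limma adjusted p = 0.00241). The C at 10089 went from 6.88% and 7.12% to 3.27% and 3.47%, a centred change of -0.40 (limma adjusted p = 0.00114). In all 4 cases the knockout libraries fell below both wild-type libraries, as at all 68 positions of the highest group and 177 of the 204 of ND3. The 4 were chosen by their wild-type levels, which are also those compared. Of the 102 tested C, 40 are followed by a C. Their mean was 4.70% in the wild type and 2.73% in the knockout, whereas the 9 C followed by G stood at 3.52% and 2.77%. The 36 followed by T stood at 3.45% and 2.37%, and the 17 followed by A at 4.20% and 2.77%. For C, the spread between kinds of neighbour was thus narrower in the knockout. For A, the means ran from 2.15% (followed by A) to 3.42% (followed by G) in the wild type. In the knockout they ran from 1.61% to 2.65% for the same kinds, so the narrowing is stated for C alone.

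The other named falls were at positions below the wild-type mean of ND3. The C at 10330 was at 3.17% and 3.30% in the wild type and 1.42% and 1.40% in the knockout (centred change -0.52, limma adjusted p = 0.00069). The C at 10354 was at 1.50% and 1.42% against 0.643% and 0.512% (centred change -0.58, limma adjusted p = 0.0121). Neither pair of groups overlapped.

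Next to the deepest fall lay a position that rose. In the sequence below, the first capital is the C at 10310 and the second the C at 10313.
10310 and 10313, chrM:10296-10327: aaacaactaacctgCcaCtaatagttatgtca

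The C at 10313 was at 2.11% and 2.16% in the wild type and at 2.76% and 2.95% in the knockout. It rose by 1.03 with centring (SE 0.05, limma adjusted p = 0.000218) and by 0.40 without (adjusted p = 0.00084). The wild-type mean at 10310 was several times that at 10313, but in the knockout they stood at 3.37% ± 0.16 and 2.85% ± 0.13 (SD, n = 2).

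Besides the first base, 3 positions completed the 4 largest rises: 10174, 10313 and 10402. The C at 10174 was at 1.27% and 1.23% in the wild type and at 1.74% and 1.68% in the knockout (centred rise 1.05, SE 0.06, limma adjusted p = 0.000313; 0.42 without centring, adjusted p = 0.00202). The A at 10402, the last A of the mRNA, was at 0.341% and 0.353% against 0.463% and 0.488% (centred rise 0.99, limma adjusted p = 0.00141; 0.36 without centring, adjusted p = 0.0273). Groups did not overlap at any of these 3 positions.

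**Figure D3:**
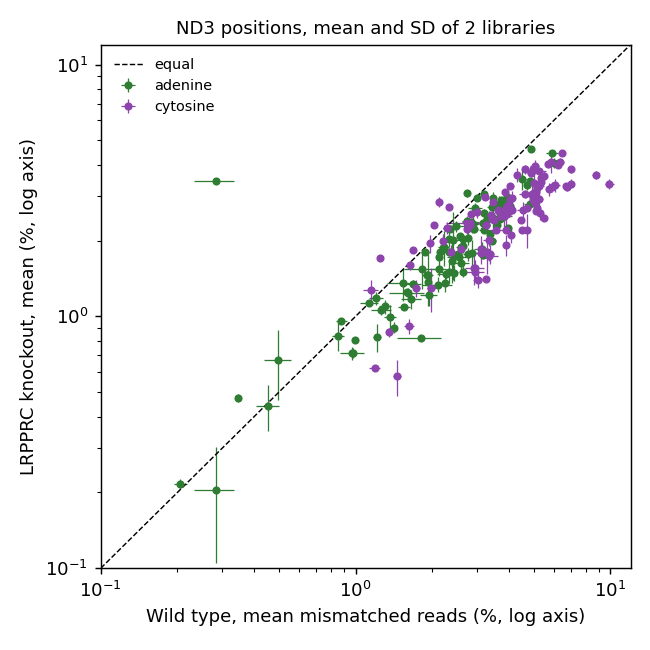
Knockout mean against wild-type mean mismatch level in percent (both axes log scale) for the 204 A and C positions of ND3, each point the mean of 2 libraries with bars of 1 SD, A and C in separate colours. Most points lie below the line of equal levels, 177 of them lower without overlap, and the first base stands alone far above it at 0.284% and 3.45%.

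Only 7 positions of ND3 were called higher without centring, and 4 of these lay within 31 nt, between 10172 and 10202. The stretch is shown because its sequence is predicted to fold into a hairpin. In the first line below, capitals mark the predicted arms, 10172 to 10176 and 10198 to 10202, which form 5 base pairs in the fold of lowest free energy of the ND3 mRNA (RNAfold, from sequence alone, -30.6 kcal/mol for the whole mRNA). In the second line, capitals mark the 4 positions that were higher without centring.
Predicted arms, chrM:10167-10207: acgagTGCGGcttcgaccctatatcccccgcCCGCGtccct
Higher positions, chrM:10167-10207: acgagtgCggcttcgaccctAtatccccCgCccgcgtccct

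The 4 positions are the C at 10174, described above, the A at 10187 and the C at 10195 and at 10197. The A at 10187 had levels of 2.75% and 2.73% in the wild type, against 3.02% and 3.16% in the knockout libraries. The C at 10195 was at 2.06% and 2.00% against 2.34% and 2.29%, and the C at 10197 at 2.32% and 2.35% against 2.74% and 2.68%. Each rose without overlap, by 0.17, 0.18 and 0.21 without centring (limma adjusted p = 0.00764, 0.0101 and 0.00322). Of the 18 tested positions in the stretch, 12 were called higher with centring and 1 lower, and 10 were called lower without centring. Over the strand the shares were 44.9% higher and 26.6% lower with centring and 78.3% lower without, and over ND3 50.0%, 16.7% and 83.3%. Its median change was 0.46 with centring and -0.17 without. The 4 tested positions in the arms averaged 2.03% in the wild type and 2.02% in the knockout, whereas the 14 between the arms went from 3.99% to 3.10%. Not all of the 14 are unpaired in that fold, which also pairs 10180 with 10196 and 10181 with 10195. Since the stretch was chosen after its values were seen, these counts are a description and were not tested.

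Along the mRNA, cut into consecutive 50-nt windows from the first base, all 7 windows were lower without centring, as were 99.1% of the 219 windows of the heavy-strand mRNAs. With centring, 6 of the 7 were called higher, beside a background of 66.2% higher, 26.0% lower and 92.2% called in either direction. The largest rises relative to the library median were in the third window, 10158 to 10207, which holds the predicted hairpin (3.76% ± 0.083 to 2.80% ± 0.002, centred change 0.29, SE 0.011), and in the last, 10358 to 10403 (2.33% ± 0.010 to 1.78% ± 0.126, 0.29, SE 0.025). The fourth, 10208 to 10257, went from 3.37% ± 0.063 to 2.45% ± 0.023 (0.24), and the fifth, 10258 to 10307, from 3.78% ± 0.046 to 2.60% ± 0.019 (0.14). The first, 10058 to 10107, went from 3.44% ± 0.002 to 2.13% ± 0.024 (0.09) and the second, 10108 to 10157, from 3.27% ± 0.096 to 2.20% ± 0.021 (0.12). The sixth, 10308 to 10357, which contains the C at 10310, went from 3.14% ± 0.059 to 1.94% ± 0.069 (all SD, n = 2). It was the only window not called with centring (0.01, limma adjusted p = 0.604). The window fit took the spread of each window from a trend with level that all windows shared. Its p-values are therefore very small and are not given for the others. In windows of 30 nt, 10 of 12 were called, 9 higher and 1 lower. The shares over all 30-nt windows of the heavy-strand mRNAs were not counted, so these numbers are a description.

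**Figure D4:**
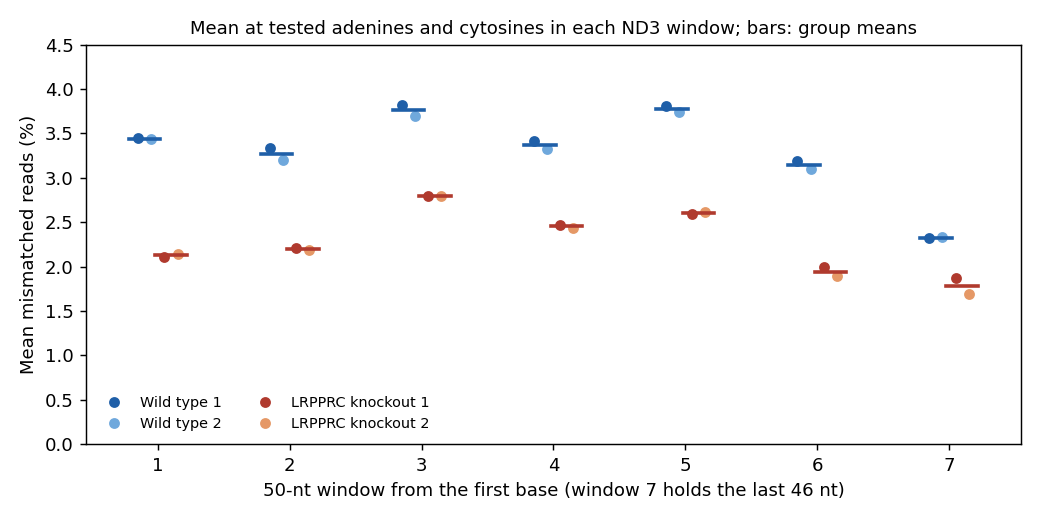
Mean mismatch level in percent (vertical axis, from 0) over the tested A and C positions of each of the 7 windows of 50 nt along ND3 (horizontal axis, window number from the 5′ end). Points are the 4 libraries and bars the group means; the knockout libraries lie below the wild-type libraries in every window, from 3.78% against 2.60% in the fifth to 2.33% against 1.78% in the last.

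Within the gene, the level of the first 50 nt (31 tested positions) relative to the remaining 173 was near 0 in the wild type and lower in the knockout. With A and C each set against its own median over ND3, the log2 difference was -0.01 in the wild type and -0.10 in the knockout, a change of -0.09 (exact permutation p = 0.333). This contrast turned sign for A alone (0.17) and for the first 30 nt alone (0.12), so no direction is given to it. The third codon positions (93) were slightly below the first and the second ones (111) in both groups, by 0.08 in the wild type and 0.06 in the knockout (change 0.02, exact permutation p = 0.333; for A alone -0.0035).

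Positions predicted to be unpaired were higher in both groups. The 98 positions with a predicted unpaired probability over 0.8 (RNAplfold, from sequence alone) exceeded the 8 with one under 0.2 by 0.62 ± 0.085 on the log2 scale in the wild type and by 0.50 ± 0.076 in the knockout (SD, n = 2). The change of -0.11 was of the size of the spread between libraries (exact permutation p = 0.333). It was -0.05 without wild-type replicate 1, -0.17 without wild-type replicate 2, -0.06 without knockout replicate 1 and -0.17 without knockout replicate 2. Using the fold of lowest free energy, with 136 unpaired and 68 paired positions, the difference was 0.41 ± 0.005 and 0.24 ± 0.027. In that fold the difference was 0.36 in the wild type and 0.09 in the knockout for C, and 0.24 and 0.23 for A. Across the 204 positions, Spearman's rho between level and unpaired probability was 0.34 in the wild type and 0.30 in the knockout. By base it did not follow that split, at 0.395 and 0.378 for C and 0.125 and 0.075 for A. This is a description over positions that share libraries and differ in base.

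ND3 holds a pair of runs of 5 A, given here with the run in capitals because both began with a low value.
10152 to 10156, chrM:10142-10166: ggctacatagAAAAAtccacccctt
10380 to 10384, chrM:10370-10394: gagtgactacAAAAAggattagact

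In each, the first A was the lowest of the run. At 10152 it was at 0.206% ± 0.012 in the wild type and 0.216% ± 0.010 in the knockout, and at 10380 at 0.283% and 0.204%. The 4 A that follow 10152 stood at 1.59%, 0.996%, 2.56% and 2.14% in the wild type, and the 4 that follow 10380 at 1.37%, 1.93%, 3.12% and 2.23%. The run of 4 A from 10216 to 10219 differed: its levels were 2.52%, 0.968%, 3.17% and 3.19% in the wild type and 1.78%, 0.714%, 2.34% and 2.58% in the knockout, with the second A the lowest. How mismatches within a run were placed during alignment was not stated, and its part in these values was not tested.

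Background bases rose at the 3′ end too, by less than the second base of the gene, and the rise went on into TRNR. The capital marks the last base of ND3; the bases after it belong to TRNR.
ND3 end, chrM:10374-10418: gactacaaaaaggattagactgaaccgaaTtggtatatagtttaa

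The final T at 10403 averaged 0.561% ± 0.232 in the wild type and 1.36% ± 0.16 in the knockout (SD, n = 2). The first base of TRNR, the T at 10404, was at 0.583% and 0.817% in the wild type, against 2.33% and 2.58% in the knockout. In the fit of all 4 bases these rose by 1.48 and 1.99 (limma adjusted p = 0.00601 and 0.000407). The groups did not overlap at either base. The knockout mean was 2.42 times the wild-type mean at 10403, against 13.8 times at 10059. At the G and T of TRNR from 10404 to 10415 it was 2.19 (10415) to 3.72 (10409) times the wild-type mean. Opposite 10403 the light-strand RNA fell from 3.80% ± 0.003 to 2.52% ± 0.033. Of the last tested A and C of ND3, the C at 10399 went from 3.00% ± 0.13 to 2.59% ± 0.14 (centred change 0.43, limma adjusted p = 0.00227), and the A at 10401 was at 0.453% ± 0.047 and 0.443% ± 0.091 (0.60, adjusted p = 0.0276). The A at 10396 and at 10397 and the C at 10398 were not called with centring (limma adjusted p = 0.81, 0.973 and 0.4). In TRNR, the A at 10408 was at 0.218% ± 0.051 and 0.292% ± 0.018, that at 10410 at 0.215% ± 0.042 and 0.337% ± 0.118, and that at 10412 at 3.25% ± 0.22 and 3.98% ± 1.20 (all SD, n = 2). Each was called higher with centring, by 0.94, 1.08 and 0.88 (limma adjusted p = 0.00605, 0.0134 and 0.0174). The neighbouring tRNAs as a whole were far below ND3: TRNR was at 0.696% ± 0.079 and 0.746% ± 0.092, not called without centring (0.08, limma adjusted p = 0.61) and called higher with it (0.71, adjusted p = 0.00999), and TRNG rose from 0.497% ± 0.167 to 0.983% ± 0.041 (0.90 without centring, adjusted p = 0.0204; 1.53 with it, adjusted p = 0.00606).

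Levels at G and T within ND3 varied with those of the opposite strand, with a steeper slope in the knockout. Across the 142 G and T positions, the slope of the heavy-strand level on the light-strand level at the base paired with it was 7.79% ± 0.26 in the wild type and 19.7% ± 1.35 in the knockout (SD, n = 2), with Pearson's r of 0.21 and 0.48. Without the second base of the gene the slopes were 7.79% and 19.3%, with r of 0.21 and 0.62. In the other direction, the slope of the light-strand level at G and T on the heavy-strand level at the paired A and C of ND3 was 8.45% ± 1.12 in the wild type and -1.50% ± 0.97 in the knockout, so it was not steeper there. These are descriptions across positions that share libraries, strand and base composition. The groups did not overlap and the knockout was higher at 57 of the 142 G and T positions (40.1%, background 37.7%), and lower at 47. Subtracting an estimate of the other-strand reads left the centred change of ND3 at 0.15 and the uncentred change of its mean level at -1.09 percentage points. The light-strand levels opposite the A and C of ND3 were low: opposite A they were at 0.787% and 0.629%, and opposite C at 0.785% and 0.402%. The part of misassigned reads in any of these values was not tested.

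**Figure D5:**
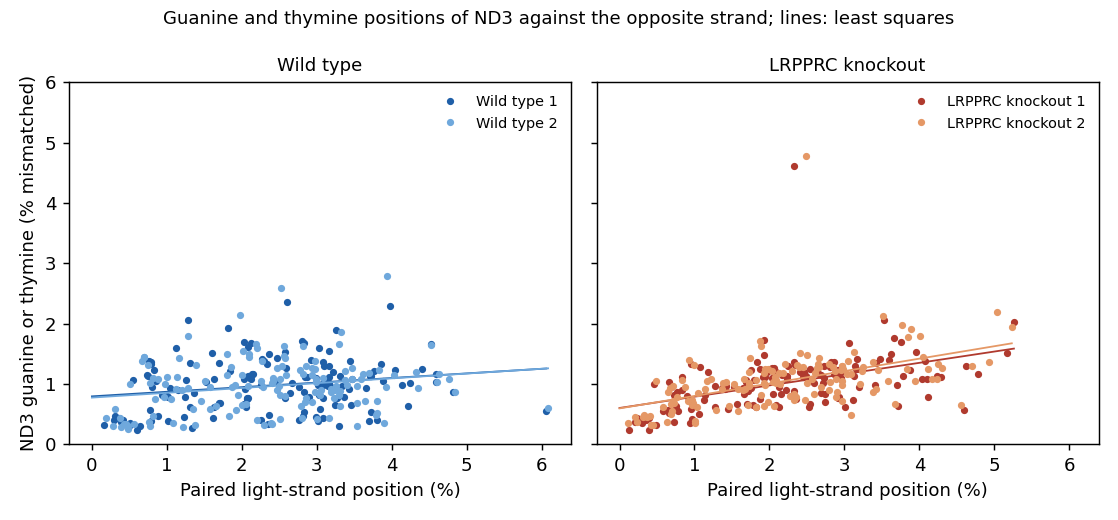
Heavy-strand mismatch level in percent at each G and T position of ND3 (vertical axis) against the light-strand level at the base opposite (horizontal axis), with a panel for each group, a point for each library and position, and least-squares lines. The mean slope is 7.79% in the wild type and 19.7% in the knockout, and the second base of ND3 lies far off the trend in the knockout at 4.70%.

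Among the mitochondrially encoded subunits of complex I, ND3 had one of the smaller falls. Without centring it changed by -0.47 (SE 0.017), close to ND1 (-0.49, SE 0.008) and ND4L (-0.50, SE 0.017), and the differences between these neighbours were not tested. All 7 (ND1, ND2, ND3, ND4L, ND4, ND5 and ND6) were lower without centring, with a median change of -0.50, against 64.9% of all genes lower and a median of -0.27. With centring 4 were called higher and 2 lower, with a median of 0.11 against 0.16 for all 37 genes. ND4, which encodes a proton-pumping subunit, fell furthest without centring, from 3.85% ± 0.021 to 1.94% ± 0.010 (-0.90), while ND6, on the other strand, changed by -0.07 (limma adjusted p = 0.000475). The Gini index was called lower for all 7, beside 37.8% of all genes. Neither count sets complex I apart: of the 12 coding sequences of the heavy strand, 12 were called lower without centring (median -0.49) and 12 had a Gini index called lower. Among the 12 heavy-strand coding sequences, ND3 stood at rank 10 by level in the wild type and rank 8 in the knockout, and at rank 9 by the size of its uncentred fall. Likeness to ND3 was taken as Euclidean distance over 8 uncentred values, the mean log2 level at A and at C in each library. The Gini index was not among them. The 3 genes most alike by this measure were ATP8 (distance 0.32, 3.41% ± 0.069 to 2.42% ± 0.003), ND5 (0.40, 3.66% ± 0.023 to 2.27% ± 0.004) and ND4L (0.50, 3.29% ± 0.045 to 2.13% ± 0.011).

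Replicate libraries were close over ND3. Pearson's r across the 204 positions was 0.994 between the wild-type libraries and 0.977 between the knockout libraries, against 0.855 to 0.860 between groups. The median absolute log2 difference at a position was 0.056 and 0.078 within groups and 0.22 to 0.25 between them.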

How the data were processed

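DMS-treated mitochondrial RNA of 4 libraries was analysed from 8 profiles, 1 for each strand of each library. Values are deposited per-base mismatch fractions (here ×100), per the file headers; reads were handled with cutadapt and Bowtie2, per the submitters' processing notes, and versions, read depth and genome build are not given in the sources used here. Without depth no counting interval can be given. The gene's place was taken from RefSeq's gene table, shifted by 1 base: 13 of 13 protein-coding genes then had an open frame, against 0 without the shift.

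A and C with a mean level of 0.002 to 0.3 were tested on log2(fraction + 0.001), centred on the library median, over all 9910 positions with limma 3.58.1 (R 4.3.3, lmFit, eBayes) and Benjamini-Hochberg adjustment at 0.05. Genes (at least 10 positions), 50-nt windows (at least 8) and Gini indices were fitted likewise; single values had exact permutation tests. Pairing was predicted with ViennaRNA 2.7.2 (RNAplfold window 240, span 160). On simulated data, 100 of 9910 positions were changed by 1 and 100 by -0.5. Of these, 82% and 48% were recovered, with 6 false calls. The simulation drew each position independently, and 71.5% of positions were called in the data. Its rates therefore do not give the error of the calls above.

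Positions named are the first base and the next 2 tested, the 4 highest in the wild type, the 4 largest rises and falls called without overlap, and those near the gene ends; others were chosen after their values were seen. The gene, lists and contrasts were chosen with earlier results of these data known. Replicate numbers were not used to pair the libraries in the main fits. The correlation across positions of deviations of same-numbered libraries was 0.00070. A shift of the whole level shared by same-numbered libraries would not show in it, so it cannot exclude pairing. Alternatives tried concern scaling, pseudocount, limits, base, deletions, windows, folding and left-out libraries.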

Additional observations from a re-analysis of the deposited data

Results flagged for a closer look

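The G and T of ND3, which DMS does not report, were outside the main measurement. At 8 of them the knockout mean was at least 2 times the wild-type mean and the groups did not overlap. The share of all G and T of the strand that meets this limit was not counted, so the 8 are a description. Without the 2-fold limit, 40.1% of the G and T of ND3 were higher without overlap, beside 37.7% for the strand. The T at 10059, the second base, was at 0.342% ± 0.006 in the wild type and 4.70% ± 0.11 in the knockout, 13.8-fold, with the light strand opposite at 2.37% and 2.41%. Nearby, the T at 10070 was at 0.866% ± 0.006 and 2.11% ± 0.11, with the light strand opposite at 4.83% and 5.14%, and the G at 10067 at 0.414% ± 0.031 and 1.22% ± 0.13, with 2.91% and 2.43% opposite. Toward the 3′ end, the G at 10359 was at 0.573% ± 0.042 and 1.73% ± 0.31, with 6.07% and 5.20% opposite, and the last base, the T at 10403, at 0.561% ± 0.23 and 1.36% ± 0.16, with 3.80% and 2.52% opposite. The remaining 3 were lower: the G at 10200 at 0.363% ± 0.044 and 0.788% ± 0.056, the G at 10097 at 0.357% ± 0.055 and 0.787% ± 0.072, and the G at 10125 at 0.302% ± 0.006 and 0.740% ± 0.057 (all SD, n = 2). Their light-strand bases were at 2.58%, 2.27% and 3.41% in the wild type and 2.34%, 2.24% and 2.82% in the knockout.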

How the results depend on the processing

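The rise of the first base held its direction and call under every alternative run, from 2.26 (pseudocount 0.01) to 4.22 (pseudocount 0.0001), and from 3.71 to 3.98 with 1 library left out (limma adjusted p 0.000721 to 0.00419). The gene's centred change was called higher under all settings but 1: without centring it was -0.47; with 1 library left out it ran from 0.15 to 0.18. The Gini difference for A alone was -0.010 and, with 1 library left out, -0.0440 to -0.0375. Positions called numbered 39 for A alone and 71 for C alone, which test fewer positions, and 89 to 132 with 1 library left out. Those higher numbered 7 without centring, 30 for A, 58 for C and 64 to 100 with 1 library left out; those lower 170, 9, 13 and 23 to 38. Windows higher numbered 0 and windows lower 7 without centring. Windows of 30 nt gave 10 called and 1 lower. Except without centring, the strand's shares under these alternatives were not counted, so the counts are a description of ND3 alone. The contrast of the first 50 nt was 0.17 for A alone and 0.12 for the first 30 nt, and the codon contrast -0.0035 for A alone; where not said above, the cause was not tested. With 1 library left out, the 6 called windows stayed 6. With the replicate number as a block, the gene's change was 0.16 (limma adjusted p = 4.23e-11). Limma shares its estimate of spread over genes, so this is not read as stronger than the limma adjusted p of 0.00202 without the block. With the block, 134 positions (99 higher, 35 lower) and 6 windows were called, and the Gini difference of -0.041 had a limma adjusted p of 0.0306. The calls of the gene and of the Gini index and the number of windows called did not change. With 2 libraries a group, exact permutation tests cannot go below 0.333. The lone library left in a group was assumed to vary like the others. Depth per position is unknown, so how far it limits the low positions cannot be given.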
